A study of Homo sapiens and Mus musculus with 18 samples.

Results

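The genes described are 35 named genes of glycolysis, lactate handling and the transcriptional response to low oxygen, taken as a list of symbols. All 35 were found in both sets of human counts, with 1 gene ID each, among 63677 gene IDs in the one-library count files and 56299 in the human table, and all 35 passed the filter on low counts. The cells came from WA09, a human embryonic stem cell line, which had first been turned into splanchnic mesoderm with WNT3A and BMP4. MLC, the epithelial form of mesothelium in the study, were made from that mesoderm in medium without FGF2 and activin A and with 20 µM SB431542, an inhibitor of TGF-beta receptors, and 4 µM retinoic acid, for 18 days. MesoT FCS were MesoT cells passaged to passage 4 on plastic in 10% fetal bovine serum with 8 ng/ml FGF2. The smooth muscle library came from splanchnic mesoderm left in culture. MesoT-derived MLC were MesoT cells replated in the MLC medium. MesoT, the mesenchymal form, was made from the mesoderm with 25 ng/ml WNT3A, 50 ng/ml BMP4 and 4 µM retinoic acid and was collected at day 22 and at day 18. Each group had 2 libraries except smooth muscle, which had 1. All groups are one cell line, and nothing in the labels says that the libraries of a group were separate differentiations. The p-values set a group difference against the spread between libraries of a group, estimated over the whole set. They do not speak for other cell lines or differentiations. The mouse and chromatin samples of the series were not analysed here.

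Glycolysis splits glucose into pyruvate in the cytosol. Glucose enters through SLC2A transporters, is trapped by hexokinases, passes the committed step at phosphofructokinase, and leaves as pyruvate made by pyruvate kinase. Lactate dehydrogenase and the SLC16A transporters turn pyruvate into lactate and move it across the membrane. Pyruvate dehydrogenase kinases inhibit pyruvate dehydrogenase, which passes pyruvate on to the TCA cycle. When oxygen falls, the prolyl hydroxylases that mark the alpha subunits of the hypoxia-inducible factors (HIF) for destruction lose activity, and HIF bound to its partner ARNT raises many of these genes together with VEGFA, CA9, ADM and the HIF hydroxylase EGLN3. Several of the same genes are also raised by growth signals in normal oxygen, among them through MYC.

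The HIF binding site has the core ACGTG or GCGTG, and the promoter windows of 3 members with large differences between groups are shown to give the sequence around the start of each gene. They are the 250 bases before the annotated start from RefSeq, build GRCh38.p14, written 5′ to 3′ on the strand of the gene, with ACGTG or its reverse complement CACGT in capitals. LDHA lies at chr11:18394313-18394562 on the plus strand, ENO2 at chr12:6914330-6914579 on the plus strand and EGLN3 at chr14:33951075-33951324 on the minus strand.
LDHA: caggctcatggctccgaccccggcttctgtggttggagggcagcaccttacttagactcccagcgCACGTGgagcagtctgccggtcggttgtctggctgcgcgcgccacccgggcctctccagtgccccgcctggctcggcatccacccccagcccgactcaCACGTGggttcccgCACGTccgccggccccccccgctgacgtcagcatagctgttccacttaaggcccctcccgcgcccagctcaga
ENO2: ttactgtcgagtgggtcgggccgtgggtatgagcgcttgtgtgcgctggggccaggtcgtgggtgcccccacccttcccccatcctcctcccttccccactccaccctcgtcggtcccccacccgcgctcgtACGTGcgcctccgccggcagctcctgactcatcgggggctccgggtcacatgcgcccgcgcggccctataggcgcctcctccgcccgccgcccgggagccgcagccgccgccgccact
EGLN3: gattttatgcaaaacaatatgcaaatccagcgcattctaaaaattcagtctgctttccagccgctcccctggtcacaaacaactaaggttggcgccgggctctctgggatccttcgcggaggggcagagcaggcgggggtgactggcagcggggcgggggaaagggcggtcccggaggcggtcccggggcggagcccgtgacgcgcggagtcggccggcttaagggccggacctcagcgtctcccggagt
LDHA held 5 matches counted on both strands, since each CACGTG reads as a match on either strand, ENO2 held 1 and EGLN3 held 0. Of the 35 members, 31 had a window in the table. ACGTG on either strand was in 13 of the 31 (41.9%), against 18.7% of 27305 promoters of the same length. GCGTG was in 11 (35.5%), against 31.9% of all promoters, and either core was in 19 (61.3%), against 43.1%. Matches to the cores can overlap one another. They describe the letters in these windows and say nothing of whether HIF was bound.

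The 7 one-library files held MLC, MesoT FCS, smooth muscle and MesoT day 18, with between 21148477 and 70679258 counts each, the MLC libraries being the deepest. The human table held MesoT-derived MLC, MesoT day 22 and MesoT day 18, with 24137663 to 31435480 counts. Levels are CPM, counts scaled to a library of 1e6 counts after TMM scaling within each set, and no fold change or test sets a group of one set against a group of the other, except where the text says that the human table's day 18 counts took the place of those in the one-library files. Fold changes are log2 values ± SE from edgeR's quasi-likelihood test with Benjamini-Hochberg adjustment over all genes tested, and a gene is said to have risen or fallen where its adjusted p was under 0.05. The summed level of the members was 5534 and 5905 CPM in MLC, 20240 and 19980 CPM in MesoT FCS, 17440 CPM in the smooth muscle library, and 9021 and 6221 CPM in MesoT day 18. The MesoT FCS and smooth muscle sums lay above both day 18 libraries, and the MLC sums lay below both. In bulk libraries, fewer cells of a type and less RNA per cell cannot be told apart. WT1, a transcription factor that marks mesothelium, had 217 and 148 CPM in MLC, 5.58 and 3.41 CPM in MesoT FCS, 0.0407 CPM in smooth muscle (1 count), and 25.9 and 46.2 CPM in MesoT day 18. UPK3B, a mesothelial surface protein, had 55.8 and 38.1 CPM in MLC, 0.714 and 0.0558 CPM in MesoT FCS, 1.14 CPM in smooth muscle, and 15.1 and 34.4 CPM in MesoT day 18. The list of 7 mesothelial markers went both ways: in MesoT FCS, KRT19 rose (log2 2.28 ± 0.30, adjusted p = 0.00738) while WT1 (adjusted p = 0.00777) and UPK3B (-5.91 ± 0.86, adjusted p = 0.00876) fell, and the list summed to 689 to 1146 CPM with none at 0. In smooth muscle KRT19 and CALB2 rose and WT1 and LRRN4 fell. The list summed to 963 to 1054 CPM in MLC and 1290 CPM in smooth muscle, against 387 to 425 CPM in MesoT day 18. The library labelled smooth muscle had 361 CPM of 5 smooth muscle markers in sum, inside the range of MesoT day 18 (118 to 663 CPM). Its 5 keratinocyte markers summed to 1289 CPM with none at 0, of which KRT5 had 869.9 CPM, against 8.44 to 9.56 CPM in MesoT day 18.

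**Figure D1:**
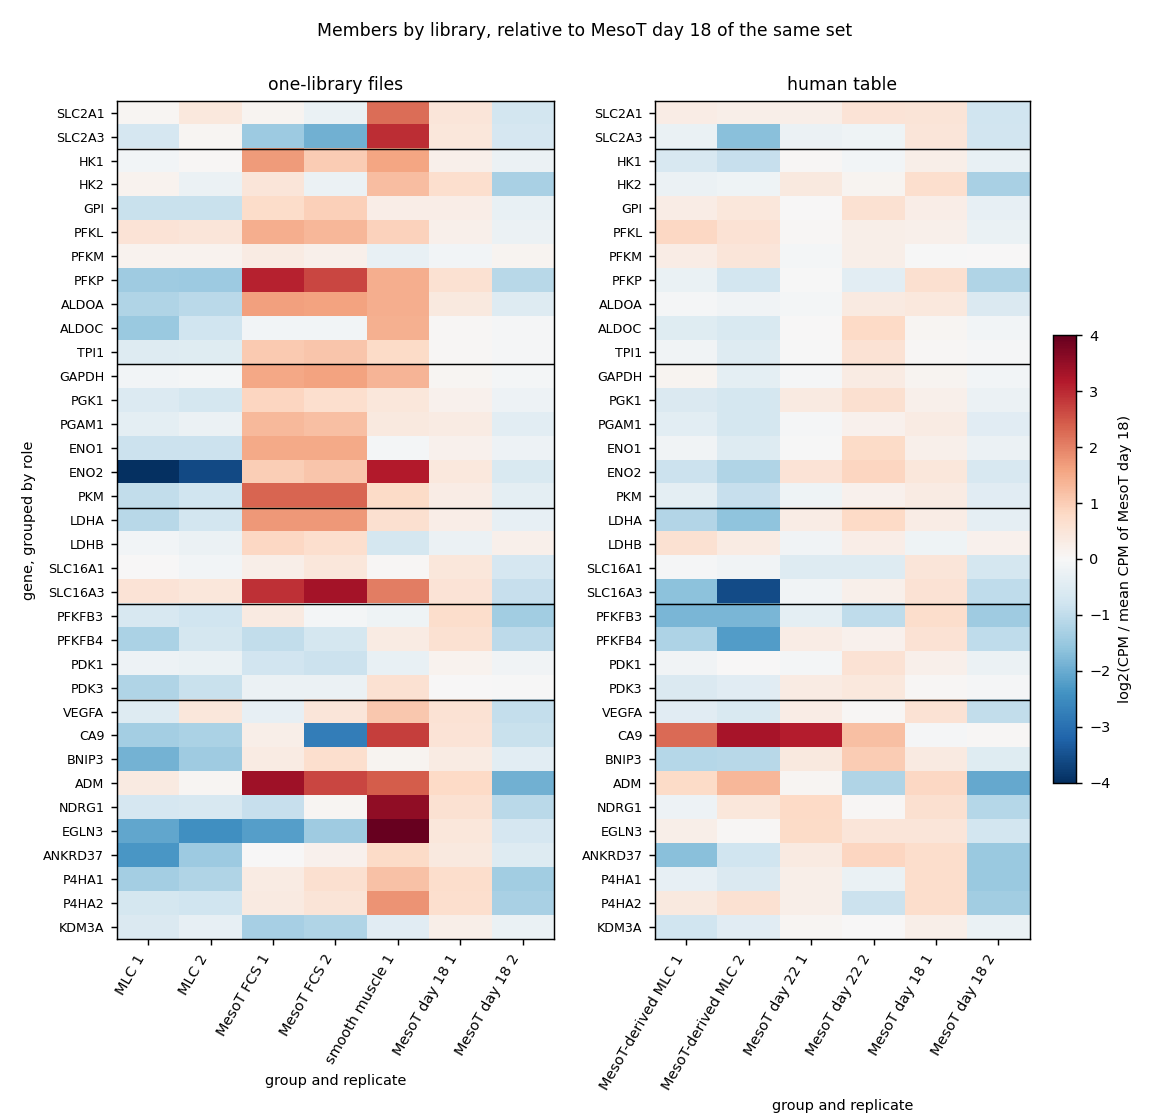
Each cell is the log2 ratio of a gene's CPM in one library to its mean CPM in MesoT day 18 of the same set, with genes grouped by role and the one-library files left of the human table; colours end at 4 in either direction. PKM, ENO1, GAPDH, ALDOA, TPI1, PFKL, PFKP and LDHA are red in both MesoT FCS libraries while ALDOC lies just below the day 18 mean, ENO2 is darkest blue in MLC, and the 2 day 18 libraries differ from each other in many rows.

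The day 18 replicates differed from each other for many members, which sets what the comparisons can show. Between the MesoT day 18 libraries of the one-library files, 16 of the 35 members (45.7%) differed by more than 1 on the log2 scale, against 21.8% of 20148 genes with a mean count of at least 10. In the human table, which holds counts for the same labelled samples, the numbers were 16 of 35 and 18.1%. Both glucose transporters passed that size in both sets. Of the members known for induction by hypoxia 7 of 10 did, with a median absolute difference of 1.48 in the one-library files and 1.68 in the human table (log2). P4HA1, a collagen prolyl hydroxylase subunit, had 265 CPM in replicate 1 and 63.0 CPM in replicate 2, and PFKFB3, which makes the activator of phosphofructokinase, had 159 and 37.8 CPM. HK2, the inducible hexokinase, had 57.0 and 14.7 CPM, and ADM, which encodes the vasodilator peptide adrenomedullin, had 13.6 and 2.08 CPM. Replicate 1 was the higher in each of these. The same 35 genes differed less between the MesoT day 22 libraries, where 3 (8.57%) passed 1 on the log2 scale, against 11.0% of all genes. All 3 were among the 10 members known for induction by hypoxia. The members' median absolute difference at day 22 was 0.375 (log2), still above the 0.293 of all genes. The direction was not the same at both days. In the human table, upper and lower glycolysis summed to 7434 and 5276 CPM in replicates 1 and 2 at day 18. At day 22 replicate 2 was the higher, with 6260 and 8502 CPM. The hypoxia-induced members summed to 985 and 327 CPM at day 18 and to 815 and 618 CPM at day 22.

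**Figure D2:**
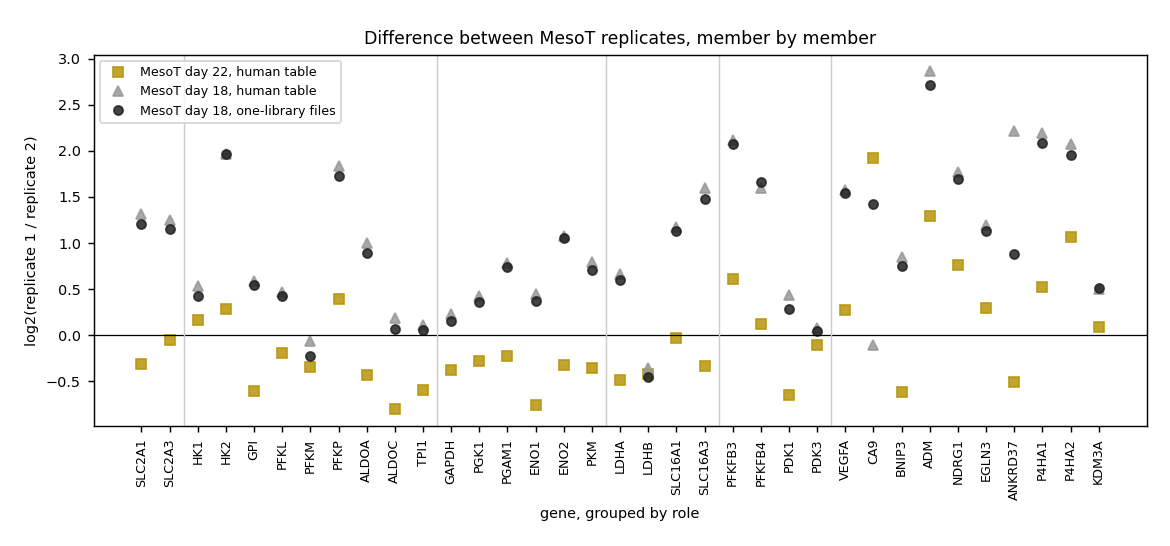
Points give, for each gene, the log2 ratio of replicate 1 to replicate 2 in MesoT day 22 and MesoT day 18 of the human table and in MesoT day 18 of the one-library files. Most genes lie above 0 at day 18, with P4HA1, PFKFB3, HK2 and ADM near or above 2. Day 22 lies closer to 0 for most genes, and below 0 for most members of upper and lower glycolysis.

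MesoT FCS against MesoT day 18 asks how the MesoT cells kept in serum differ from MesoT cells collected at day 18. The labels give no day for MesoT FCS, so these need not be the cells they were passaged from. In MesoT FCS the members that rose included PKM, ENO1, PFKP and LDHA, while SLC2A3, PDK1, KDM3A and EGLN3 fell. Of the 35 members, 14 rose and 4 fell (51.4%), where 27.3% of the 23049 genes tested passed in this comparison. Those that rose were 40% of the members against 13% of all genes, and those that fell 11.4% against 14.4%. The members' median log2 fold change was 0.49, against -0.16 over all genes. By role, 6 of 9 members of upper glycolysis, 5 of 6 of lower glycolysis and 2 of 4 of lactate handling rose, and no member of these 3 groups fell. ALDOC, an aldolase, did not pass the test, with 22.8 and 22.6 CPM in MesoT FCS, against 25.1 and 23.9 CPM in MesoT day 18.

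In upper glycolysis, PFKP, the platelet form of phosphofructokinase, had 843 and 640 CPM in MesoT FCS, against 153 and 46.1 CPM in MesoT day 18 (log2 2.90 ± 0.56, adjusted p = 0.0174). PFKL, the liver form, had 304 and 282 CPM in MesoT FCS, against 128 and 95.0 CPM in MesoT day 18 (log2 1.39 ± 0.20, adjusted p = 0.00884). The muscle form PFKM had 134 and 123 CPM in MesoT FCS, against 98.1 and 115 CPM in MesoT day 18, and did not pass. HK1, the widely used hexokinase, had 337 and 212 CPM in MesoT FCS, against 119 and 88.5 CPM in MesoT day 18 (log2 1.40 ± 0.28, adjusted p = 0.0187). The inducible HK2 had 49.6 CPM in MesoT FCS replicate 1 and lay inside the day 18 range in both replicates. ALDOA, the main aldolase, had 1723 and 1671 CPM in MesoT FCS, against 710 and 384 CPM in MesoT day 18 (log2 1.63 ± 0.33, adjusted p = 0.0184). TPI1, which interconverts the triose phosphates, had 619 and 648 CPM in MesoT FCS, against 308 and 294 CPM in MesoT day 18 (log2 1.07 ± 0.17, adjusted p = 0.0108). GPI, which isomerises glucose phosphate, rose by 0.85 ± 0.23 (log2, adjusted p = 0.0421). No library of MesoT FCS overlapped day 18 for PFKP, PFKL, HK1, ALDOA, TPI1 or GPI.

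In lower glycolysis, PKM, which encodes pyruvate kinase, had 3252 and 3217 CPM in MesoT FCS, against 797 and 488 CPM in MesoT day 18 (log2 2.33 ± 0.30, adjusted p = 0.00698). ENO1, the common enolase, had 2790 and 2769 CPM in MesoT FCS, against 1090 and 842 CPM in MesoT day 18 (log2 1.53 ± 0.23, adjusted p = 0.00927). GAPDH, often used as a reference gene for RNA amounts, had 5314 and 5463 CPM in MesoT FCS, against 1893 and 1708 CPM in MesoT day 18 (log2 1.58 ± 0.23, adjusted p = 0.00891). These 3 had close replicates in MesoT FCS and a wide gap to day 18. PGK1, which makes the first ATP of the pathway, had 515 and 448 CPM in MesoT FCS, against 318 and 247 CPM in MesoT day 18 (log2 0.77 ± 0.21, adjusted p = 0.0407). ENO2, the neuronal enolase, had 58.8 and 63.2 CPM in MesoT FCS, against 39.9 and 19.3 CPM in MesoT day 18, and did not pass. PGAM1, a phosphoglycerate mutase, had 187 and 176 CPM in MesoT FCS, against 95.6 and 57.3 CPM in MesoT day 18 (log2 1.24 ± 0.26, adjusted p = 0.0218). PGAM1 is one of the genes counted differently in the human table, and with the day 18 counts of that table its difference was 0.10 and did not pass.

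Among the genes of lactate handling, LDHA, the form of lactate dehydrogenase typical of muscle, had 1190 and 1210 CPM in MesoT FCS, against 435 and 287 CPM in MesoT day 18 (log2 1.73 ± 0.28, adjusted p = 0.0111). LDHB, the form typical of heart, had 783 and 711 CPM in MesoT FCS, against 375 and 511 CPM in MesoT day 18 (log2 0.75 ± 0.22, adjusted p = 0.0524). SLC16A3, known as a lactate exporter, had 412 and 546 CPM in MesoT FCS, against 80.3 and 28.8 CPM in MesoT day 18 (log2 3.13 ± 0.50, adjusted p = 0.0109). It had the largest fold change among the members in this comparison, and its span overlaps that of CSNK1D in RefSeq. SLC16A1, which carries lactate both ways, had 147 and 174 CPM in MesoT FCS, against 173 and 78.7 CPM in MesoT day 18, and the groups overlapped.

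None of the 2 glucose transporters and 4 regulatory enzymes rose in MesoT FCS, and 1 of each fell. SLC2A3, a high-affinity glucose transporter, had 77.2 and 55.5 CPM in MesoT FCS, against 293 and 132 CPM in MesoT day 18 (log2 -1.68 ± 0.46, adjusted p = 0.0432). SLC2A1, the general glucose transporter, had 441 and 339 CPM in MesoT FCS, against 575 and 248 CPM in MesoT day 18, inside the day 18 range. PDK1, a pyruvate dehydrogenase kinase, had 21.5 and 20.0 CPM in MesoT FCS, against 39.7 and 32.7 CPM in MesoT day 18 (log2 -0.80 ± 0.18, adjusted p = 0.0237). PDK1 too was counted differently in the human table, and with that table's day 18 counts its difference was -0.19 and did not pass. PFKFB3 had 127 and 92.4 CPM in MesoT FCS, inside its day 18 range, and so did PFKFB4, a related enzyme known as a HIF target, with 13.1 and 16.2 CPM against 39.8 and 12.6 CPM at day 18.

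The members known for induction by hypoxia showed no common direction in MesoT FCS: 1 of 10 rose and 2 fell. ADM had 81.7 and 50.0 CPM in MesoT FCS, against 13.6 and 2.08 CPM in MesoT day 18 (log2 3.07 ± 0.82, adjusted p = 0.0396). EGLN3, the HIF prolyl hydroxylase that HIF itself induces, had 1.96 and 3.35 CPM in MesoT FCS, against 12.3 and 5.64 CPM in MesoT day 18 (log2 -1.77 ± 0.45, adjusted p = 0.0351). KDM3A, a histone demethylase, had 36.6 and 39.9 CPM in MesoT FCS, against 107 and 75.5 CPM in MesoT day 18 (log2 -1.26 ± 0.22, adjusted p = 0.0133). None of these groups overlapped. VEGFA, the vascular growth factor, had 68.5 and 120 CPM in MesoT FCS, inside its day 18 range of 43.6 to 127 CPM, and P4HA1 had 205 and 255 CPM, inside 63.0 to 265 CPM. CA9, a membrane carbonic anhydrase used as a hypoxia marker, was near 0 in both groups, with 0.446 and 0.0558 CPM in MesoT FCS and 0.548 and 0.205 CPM in MesoT day 18.

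**Figure D3:**
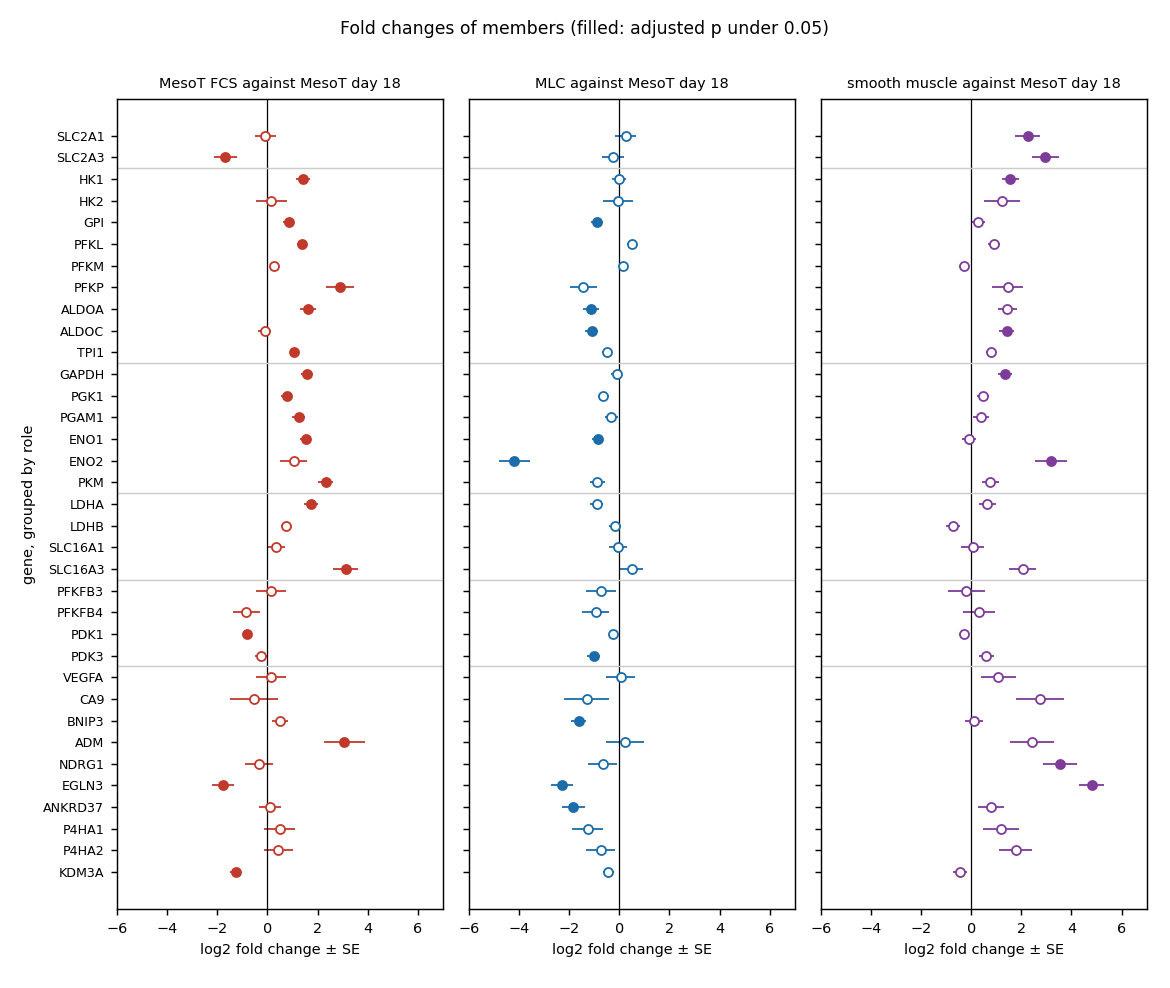
Log2 fold changes ± SE of the 35 genes, grouped by role, in MesoT FCS, MLC and the smooth muscle library, each against MesoT day 18; filled points had an adjusted p under 0.05. In MesoT FCS the filled points of glycolysis and lactate handling lie right of 0, in MLC every filled point lies left of 0, and in smooth muscle every filled point lies right of 0. The 3 panels share the day 18 libraries.

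Other genes of the same pathways were read from lists chosen beside the members. Of 25 genes of the TCA cycle and pyruvate dehydrogenase, 14 (56%) rose in MesoT FCS and 0 fell, where 27.3% of all genes passed, with PC, which makes oxaloacetate from pyruvate, at 2.20 ± 0.16 (log2, adjusted p = 0.00229). Of 33 nuclear genes of the respiratory chain, 10 rose and 1 fell (33.3%), where 13% of all genes rose and 14.4% fell. The median log2 fold change of these 33 was 0.44, against -0.16 over all genes. Of 13 mitochondrially encoded genes 0 rose and 0 fell. HIF1A, an alpha subunit of HIF, rose by 1.36 ± 0.23 (log2, adjusted p = 0.0123), CITED2, which competes with HIF for its coactivators, rose by 2.69 ± 0.31 (adjusted p = 0.00556), and HIF3A, another alpha subunit, fell by 4.63 ± 0.65 on the log2 scale (adjusted p = 0.00837). Of 33 other hypoxia-induced genes tested, 7 rose and 5 fell (36.4%), which is not far from the share of all genes. They included CA12, another carbonic anhydrase, at 3.11 ± 0.54 (adjusted p = 0.0134). MYC rose by 3.18 ± 0.38 (log2, adjusted p = 0.00597) and its relative MYCN fell by 8.80 ± 0.64 on the log2 scale (adjusted p = 0.00235). Of 16 subunits and regulators of HIF, 4 rose and 3 fell (43.8%). Of 18 cell cycle genes 13 rose and 0 fell (72.2%), and in MLC against MesoT day 18 15 rose and 0 fell (83.3%). Markers of fibroblasts and mesenchyme summed to 37040 to 55260 CPM in MesoT FCS, with 0 of 5 at 0, against 5417 to 15810 CPM in MesoT day 18, where COL1A1 rose (log2 2.72 ± 0.73, adjusted p = 0.0407) and DCN and LUM fell (-2.34 ± 0.25 and -2.19 ± 0.37, adjusted p = 0.00465 and 0.0125). Endothelial markers summed to 7.15 to 42.3 CPM in MesoT FCS, against 98.6 to 273 CPM in MesoT day 18. ERG, CDH5 and KDR fell among the 4 of these 5 that were tested, and PECAM1 was at 0 in both groups. The part of these markers and of growth in the members' values was not tested.

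PKM, ENO1, TPI1, LDHA, SLC16A3 and PFKL passed the threshold in each of 13 alternative fits of MesoT FCS against day 18. Without MesoT FCS replicate 1 the members called were 7, all higher, where 12.1% of all genes passed, and without replicate 2 they were 9, all higher, where 13% did. Without day 18 replicate 1 they were 19 higher and 2 lower, where 34.5% of all genes passed. Without day 18 replicate 2 they were 12 higher and 5 lower, where 23.8% did.

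**Figure D4:**
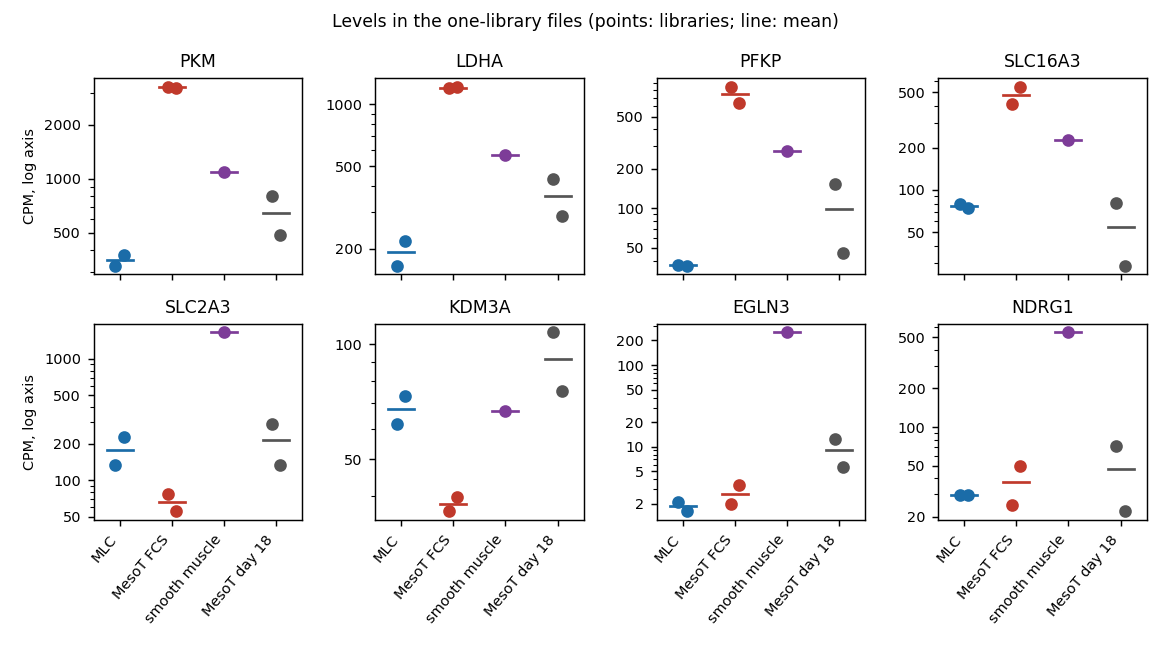
CPM on a log axis for 8 genes in MLC, MesoT FCS, the smooth muscle library and MesoT day 18 of the one-library files; points are libraries and lines are group means. PKM, LDHA, PFKP and SLC16A3 are highest in MesoT FCS, SLC2A3, EGLN3 and NDRG1 are highest in smooth muscle, and KDM3A is highest at day 18.

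MLC against MesoT day 18 sets the epithelial form beside the mesenchymal form at the same day. Of the 35 members, 0 rose and 9 fell (25.7%), close to the 24.6% of all 23049 genes that passed (7.83% rose and 16.8% fell). Over all genes tested, the count is therefore no result about these genes as a group. The count over genes counted alike at day 18 is given further below. The members' median log2 fold change was -0.66, against -0.03 over all genes. ENO2 stood apart from the rest. It had 0.819 and 2.44 CPM in MLC, against 39.9 and 19.3 CPM in MesoT day 18 (log2 -4.19 ± 0.61, adjusted p = 0.00623), and it passed the threshold in each of 14 alternative fits. EGLN3 had 2.10 and 1.62 CPM in MLC, against 12.3 and 5.64 CPM in MesoT day 18 (log2 -2.27 ± 0.44, adjusted p = 0.0161). BNIP3, a mitophagy receptor induced by HIF, had 11.1 and 15.3 CPM in MLC, against 51.0 and 30.4 CPM in MesoT day 18 (log2 -1.63 ± 0.31, adjusted p = 0.0162). In all 3 genes both MLC libraries lay below both day 18 libraries. BNIP3 has copies elsewhere in the genome, whose counts were 0.691% to 11% of its own in the one-library files and 19.3% to 24.2% in the human table, so reads may have been split among them.

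The glycolytic enzymes that fell in MLC did so by less. ALDOA had 236 and 260 CPM in MLC, against 710 and 384 CPM in MesoT day 18 (log2 -1.14 ± 0.32, adjusted p = 0.0492). ALDOC, the brain aldolase, had 8.77 and 14.1 CPM in MLC, against 25.1 and 23.9 CPM in MesoT day 18 (log2 -1.10 ± 0.25, adjusted p = 0.0286). GPI had 88.4 and 86.9 CPM in MLC, against 193 and 131 CPM in MesoT day 18 (log2 -0.89 ± 0.23, adjusted p = 0.0395). ENO1, at -0.86 ± 0.22 (adjusted p = 0.0401), and PDK3, another pyruvate dehydrogenase kinase, at -1.03 ± 0.26 (adjusted p = 0.0357), completed the set together with ANKRD37, a gene with ankyrin repeats known as a HIF target. ANKRD37 had 1.16 and 2.09 CPM in MLC, against 7.51 and 4.06 CPM in MesoT day 18 (log2 -1.83 ± 0.45, adjusted p = 0.0342). Its day 18 counts were 87 and 19 in the human table, against 233 and 119 in the one-library files, and with the human table's counts in the fit its difference turned to 0.07 (adjusted p = 0.946). In RefSeq the span of ANKRD37 overlaps those of LRP2BP and UFSP2.

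LDHA and P4HA1 had negative fold changes in MLC that did not pass, at -0.91 ± 0.27 (adjusted p = 0.0591) and -1.27 ± 0.61 (adjusted p = 0.183). LDHA had 166 and 219 CPM in MLC, below both day 18 libraries, and P4HA1 had 64.6 and 72.0 CPM, close to the 63.0 CPM of day 18 replicate 2. The transporters overlapped between the groups: SLC2A1 had 437 and 546 CPM in MLC and SLC2A3 had 132 and 225 CPM. HK2 had 39.4 and 30.2 CPM in MLC, PFKFB3 had 62.9 and 56.5 CPM, and VEGFA had 59.2 and 118 CPM, all inside the day 18 range. This comparison, which shares the day 18 libraries with the others, turned on single libraries. Without MLC replicate 1 only ENO2 was called among the members, where 7.52% of all genes passed, and without MLC replicate 2 ENO2 and ALDOC were called, where 7.48% did. Without day 18 replicate 1 there were 3 lower (ENO2, EGLN3 and BNIP3) and 6 higher (SLC16A3, ADM, PFKL, SLC2A1, SLC16A1 and P4HA2), where 26.1% of all genes passed. Without day 18 replicate 2 there were 19 lower and 0 higher, where 29.6% did.

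The counting of day 18 also bears on this comparison. A fit was made over the genes for which both sets gave day 18 values no more than 0.5 apart (log2). In it 6 of 31 members fell in MLC and 0 rose, where 591 of 12669 such genes fell and 393 rose (7.77% in either direction). The share of members was above that of all genes in this fit. Over all genes tested, the shares of members and of all genes were close (25.7% and 24.6%). Those 6 were ENO2, BNIP3, EGLN3, ALDOC, ENO1 and GPI. Among the other lists, 10 of 13 mitochondrially encoded genes rose in MLC and 1 fell, and mitochondrially encoded RNA took 6.84% and 7.76% of counts in MLC, against 3.42% and 3.35% in MesoT day 18. EPAS1, an alpha subunit of HIF, rose by 3.97 ± 1.09 (log2, adjusted p = 0.0464), while the muscle forms ENO3 and PGAM2 fell (log2 -3.75 ± 0.33 and -4.88 ± 0.50, adjusted p = 0.00119 and 0.0018). Of 33 other hypoxia-induced genes tested 0 rose and 4 fell, among them AK4, an adenylate kinase, at -2.14 ± 0.44 (adjusted p = 0.0189), which is 12.1%, under the 24.6% of all genes. Hepatocyte markers summed to 50.3 to 114 CPM in MLC, with 0 of 5 at 0, against 0.677 to 1.98 CPM in MesoT day 18, and 4 gut markers to 25.9 to 41.9 CPM, with 0 at 0, against 0.0966 to 0.376 CPM. Of 18 cell cycle genes 15 rose in MLC and 0 fell (83.3%, where 24.6% of all genes passed). The part of the hepatocyte and gut markers, of the cell cycle and of mitochondrial RNA in the members' values was not tested.

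MLC against MesoT FCS gave the widest contrast. Here 3 members rose and 20 fell in MLC (65.7%), where 48.9% of 23049 genes passed. Those that fell were 57.1% of the members against 26.3% of all genes, and those that rose 8.57% against 22.6%. The members' median log2 fold change was -1.18, against 0.00 over all genes. All 6 members of lower glycolysis and 7 of 9 of upper glycolysis fell. PKM had 328 and 374 CPM in MLC, against 3252 and 3217 CPM in MesoT FCS (log2 -3.20 ± 0.31, adjusted p = 0.000958), and PFKP had 37.2 and 36.8 CPM in MLC, against 843 and 640 CPM in MesoT FCS (log2 -4.33 ± 0.60, adjusted p = 0.00284). ENO2 was lowest against MesoT FCS, at -5.23 ± 0.64 (log2, adjusted p = 0.00186). LDHA fell by 2.64 ± 0.29 on the log2 scale (adjusted p = 0.00131) and LDHB by 0.92 ± 0.22 (adjusted p = 0.0179). SLC16A3 had 79.8 and 74.4 CPM in MLC, against 412 and 546 CPM in MesoT FCS (log2 -2.64 ± 0.49, adjusted p = 0.00736). The 3 that rose in MLC were SLC2A3 (log2 1.43 ± 0.46, adjusted p = 0.0442), KDM3A (0.82 ± 0.22, adjusted p = 0.0238) and PDK1 (0.57 ± 0.18, adjusted p = 0.0399). When any single library of either group was left out, between 11 and 15 members were called, all of them lower in MLC, so none of those 3 was called there. Between 21.7% and 37% of all genes passed in those fits.

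Smooth muscle against MesoT day 18 rests on 1 library, whose spread was taken from the replicated groups and which carried keratinocyte markers as given above. Its ACTC1, a heart muscle actin, was 717.9 CPM of the 728 CPM summed over 6 markers of heart and skeletal muscle, among which MYH6 and MYOD1 were at 0, against 25.1 to 34.9 CPM in MesoT day 18. Their part in the values below was not tested. In this library 8 members rose and 0 fell (22.9%), where 8.67% of all genes passed (5.08% rose and 3.58% fell). Both glucose transporters rose. SLC2A1 had 1956 CPM in smooth muscle, against 575 and 248 CPM in MesoT day 18 (log2 2.25 ± 0.49, adjusted p = 0.0464), and SLC2A3 had 1649 CPM in smooth muscle, against 293 and 132 CPM in MesoT day 18 (log2 2.96 ± 0.53, adjusted p = 0.0318). EGLN3 had 250.6 CPM in smooth muscle, against 12.3 and 5.64 CPM in MesoT day 18 (log2 4.80 ± 0.51, adjusted p = 0.0142). NDRG1, a stress and differentiation gene induced by HIF, had 546 CPM in smooth muscle, against 71.5 and 22.2 CPM in MesoT day 18 (log2 3.54 ± 0.68, adjusted p = 0.0362). Of the 7 one-library files, EGLN3 and NDRG1 were highest in this one.

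Among the enzymes, ENO2 had 269 CPM in smooth muscle, against 39.9 and 19.3 CPM in MesoT day 18 (log2 3.18 ± 0.63, adjusted p = 0.0377), GAPDH rose by 1.36 ± 0.27 (log2, adjusted p = 0.0382), HK1 by 1.57 ± 0.33 (adjusted p = 0.0423) and ALDOC by 1.42 ± 0.30 (adjusted p = 0.0427). ALDOA, at 1.45 ± 0.37 (adjusted p = 0.0656), and SLC16A3, at 2.06 ± 0.54 (adjusted p = 0.0682), did not pass. PKM had 1097 CPM and LDHA 566 CPM in smooth muscle, both above their 2 day 18 libraries without passing. VEGFA had 181 CPM in smooth muscle, P4HA1 372 CPM, ADM 42.4 CPM and CA9 2.56 CPM, all above both day 18 libraries and none past the threshold. Of 33 other hypoxia-induced genes tested 3 rose and 0 fell, namely HILPDA, a lipid droplet protein (log2 1.93 ± 0.21, adjusted p = 0.0142), PPP1R3C (2.03 ± 0.30, adjusted p = 0.0232) and ERO1A (1.42 ± 0.30, adjusted p = 0.0433), which is 9.09%, near the share of all genes. Without day 18 replicate 1 the members called were 19 higher and 1 lower (LDHB), where 18.9% of all genes passed. Without day 18 replicate 2 8 were called again, all higher, with P4HA2, SLC16A3 and ALDOA in place of HK1, ENO2 and ALDOC, where 10.5% did. With only the smooth muscle and day 18 libraries in the fit, 0 of all 21944 genes were called, so that fit says nothing of the members.

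MesoT-derived MLC against MesoT, in the human table, takes the mean of day 22 and day 18 as the comparator. Of the 35 members, 0 rose and 2 fell (5.71%), fewer than the 9.95% of 22316 genes that passed (6.63% rose and 3.32% fell). LDHA had 175 and 128 CPM in MesoT-derived MLC, against 485 and 682 CPM in MesoT day 22 and 482 and 304 CPM in MesoT day 18 (log2 -1.66 ± 0.31, adjusted p = 0.0321). BNIP3 had 18.5 and 19.0 CPM in MesoT-derived MLC, against 53.9 and 82.9 CPM in MesoT day 22 and 52.8 and 29.3 CPM in MesoT day 18 (log2 -1.50 ± 0.31, adjusted p = 0.0405). Both genes were lower in both MesoT-derived libraries than in any of the 4 MesoT libraries. SLC16A3 had 21.8 and 5.68 CPM in MesoT-derived MLC, below the 4 MesoT libraries (33.6 to 102 CPM), and did not pass (log2 -2.32 ± 0.70, adjusted p = 0.0871). PFKFB4 had 14.1 and 6.98 CPM in MesoT-derived MLC, against 16.3 to 49.6 CPM in MesoT, and did not pass either (-1.76 ± 0.53, adjusted p = 0.0856). When either MesoT-derived library or either day 22 library was left out, 0 members were called, and 0% to 1.32% of all genes passed. Members called were 2 higher and 3 lower without day 18 replicate 1, where 12.8% of all genes passed, and 8 lower without day 18 replicate 2, where 7.7% did.

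Of the 35 members, 12 were lower and 3 higher in both MesoT-derived libraries than in every MesoT library (42.9%), where 46.7% of genes with a mean count of at least 10 were apart in this way, and the share of members is near that of all genes. PGK1 had 205 to 223 CPM in MesoT-derived MLC, against 286 to 515 CPM in MesoT, and HK1 had 64.5 to 79.2 CPM, against 101 to 146 CPM. PFKL was higher, with 204 to 239 CPM in MesoT-derived MLC, against 113 to 160 CPM in MesoT. None of these passed the test. The other 20 members overlapped. GAPDH had 2172 and 1550 CPM in MesoT-derived MLC, against 1862 to 2524 CPM in MesoT, and SLC2A1 had 609 and 582 CPM, against 287 to 734 CPM in MesoT. EGLN3 had 13.5 and 11.9 CPM in MesoT-derived MLC, against 6.93 to 19.4 CPM in MesoT. CA9 had 2.01 and 4.17 CPM in MesoT-derived MLC, against 0.406 to 3.70 CPM in MesoT. In the other lists EPAS1 rose by 3.12 ± 0.44 (log2, adjusted p = 0.0205) and HKDC1, a hexokinase relative, by 5.52 ± 0.78 (adjusted p = 0.0204). WSB1, a hypoxia-induced ubiquitin ligase subunit, fell by 1.34 ± 0.17 on the log2 scale (adjusted p = 0.0175) and FAM162A by 1.21 ± 0.22 (adjusted p = 0.03). Hepatocyte markers summed to 79.9 to 196 CPM in MesoT-derived MLC, with 0 of 5 at 0, against 0.766 to 3.12 CPM over the MesoT libraries, and their part in these values was not tested.

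MesoT day 22 against MesoT day 18 gave 0 members called by edgeR, where 0% of 22316 genes passed and 171 genes, 1 of them a member, had an unadjusted p under 0.05. DESeq2 also called 0 genes, with 204 at an unadjusted p under 0.05. The member was CA9, with 3.70 and 0.980 CPM in MesoT day 22, against 0.406 and 0.440 CPM in MesoT day 18 (log2 2.46 ± 0.75). Its day 18 values rest on 11 and 12 counts. LDHA had 485 and 682 CPM in MesoT day 22, against 482 and 304 CPM in MesoT day 18, and the other members had fitted log2 changes between -0.67 (PFKFB3) and 0.74 (BNIP3).

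Ratios between related genes within a library do not depend on scaling, and are compared here only across libraries. LDHA had 0.401 and 0.586 counts per LDHB count in MLC, 1.52 and 1.70 in MesoT FCS, 2.10 in smooth muscle, and 1.16 and 0.561 in MesoT day 18. In the human table the ratio was 0.217 and 0.193 in MesoT-derived MLC, against 1.01 and 1.06 in MesoT day 22 and 1.03 and 0.510 in MesoT day 18. The MesoT-derived MLC libraries thus lay below all 4 MesoT libraries, and the MLC libraries overlapped day 18. PFKP took 11.7% and 11.8% of the counts of the 3 phosphofructokinase genes in MLC, 65.8% and 61.3% in MesoT FCS, 47.8% in smooth muscle, and 40.4% and 18.0% in MesoT day 18, so MesoT FCS and MLC lay on either side of day 18. SLC16A3 had 0.623 and 0.636 counts per SLC16A1 count in MLC, 2.79 and 3.15 in MesoT FCS, 1.74 in smooth muscle, and 0.465 and 0.366 in MesoT day 18. The ratio was 0.145 and 0.0399 in MesoT-derived MLC, against 0.565 and 0.696 in MesoT day 22 and 0.469 and 0.348 in MesoT day 18. SLC2A3 per SLC2A1 was 0.175 and 0.164 in MesoT FCS, against 0.509 and 0.532 in MesoT day 18, where the 2 day 18 libraries were close although both genes differed between them. No test was run on these ratios.

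**Figure D5:**
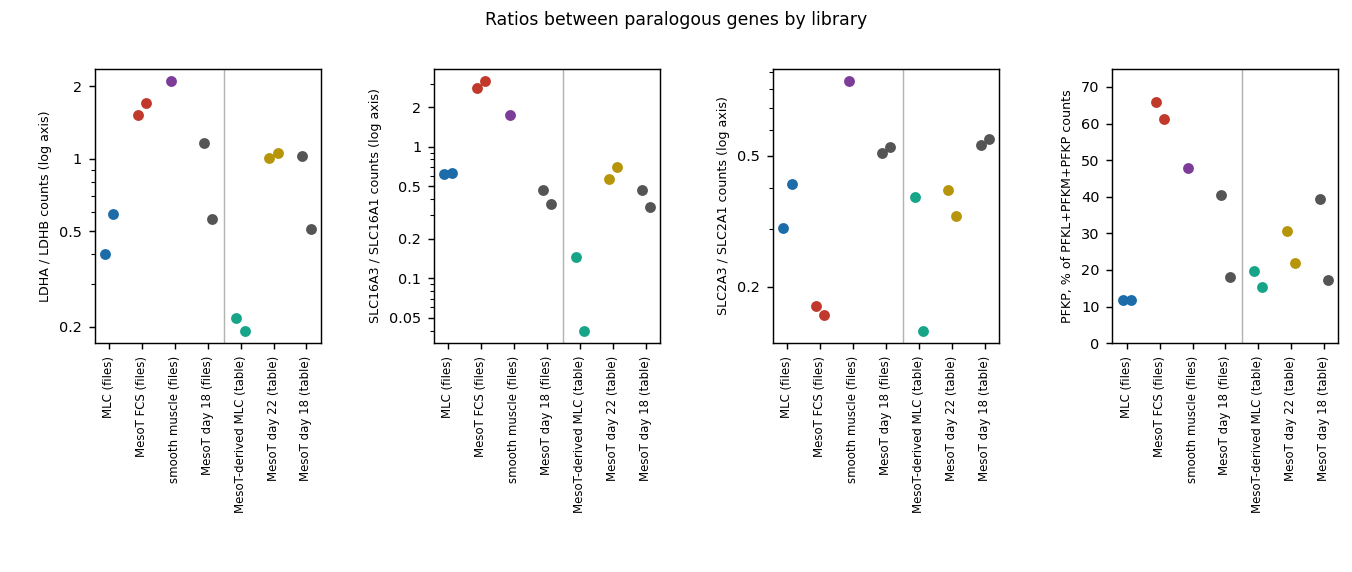
Ratios of counts between related genes by library, with the one-library files left of the grey line and the human table right of it; the first 3 panels have log axes and the last gives the percent of PFKL, PFKM and PFKP counts that were PFKP. Within the human table LDHA per LDHB is lowest in MesoT-derived MLC (0.217 and 0.193). Within the one-library files SLC16A3 per SLC16A1 is highest, and PFKP takes its largest share, in MesoT FCS.

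The 2 sets of day 18 counts were compared gene by gene for the same labelled samples. Of the 35 members 31 agreed within 0.5 (log2) in both replicates, and 12674 of 22110 genes (57.3%) did. The human table minus the one-library files gave, on the log2 scale for replicates 1 and 2, 1.14 and 1.18 for PGAM1, -0.563 and -0.642 for PDK1, and -1.56 and -2.77 for ANKRD37. CA9 differed by -0.748 and 0.785, on 17 and 6 counts in the one-library files. PGAM1 has 14 copies by symbol in these files, whose counts were 2.48% to 8.46% of its own, and PDK1 overlaps an antisense gene in RefSeq. Copies of TPI1 had 3.08% to 6.62% of its counts, and in RefSeq TPI1 overlaps SPSB2, BNIP3 overlaps PPP2R2D and PFKM overlaps SENP1. Neither the strand setting nor the annotation of either counting is stated in the sources used here.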

How the data were processed

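Poly-A RNA was sequenced from 11 human libraries of WA09 cells in 6 groups, and MesoT day 18 stands in both sets of counts. The deposited values are whole-number counts per Ensembl gene ID, made by the authors. The submitters' processing notes name TopHat2 2.0.13, Bowtie2 2.2.9, Subread 1.4.2, featureCounts and hg19, with no role stated. Read lengths of 50 and 75 bases are stated without saying which library had which. Symbols came from a table of gene names that matched 52181 of 63677 IDs in the one-library files and 46802 of 56299 in the human table.

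From these counts, edgeR 4.0.16 in R 4.3.3 fitted all libraries of a set with TMM scaling, filterByExpr and the quasi-likelihood F test. Threshold was an adjusted p of 0.05 over all genes, and residual degrees of freedom were 3. SE was derived from the F statistic. On simulated data 63% of changes of 1 (log2) were called for MLC against MesoT day 18 with 21906 genes, and 100% of changes of 2. The simulation gave all genes the same fixed spread and all libraries of a group the same expected levels. In the one-library files the members differed between the day 18 libraries by a median of 0.885 (log2). The simulated shares are therefore not the shares to be found in these data. DESeq2 1.42.0, other scaling, no filter, a replicate block, day 18 counts of the other set and leaving out each library were alternatives. The members and gene lists were chosen with earlier results of these data known. Values were given for up to 12 called members without overlap per comparison by smallest p, those counted differently at day 18, and 15 members always named; up to 4 genes of each other list were named by smallest p. RefSeq promoter windows matched 31 of 35 members.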

Additional observations from a re-analysis of the deposited data

How the results depend on the processing

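Counts of members called moved by over 1.5 times under these alternatives, with the percent of all genes that passed in the same fit in parentheses. For MLC against MesoT day 18, with 9 called, DESeq2 called 15 (32.1% of all genes passed) and the fit with the replicate number as a block called 4 (22.8%). For MesoT FCS against MesoT day 18, with 18 called, the fit over only the groups compared called 8 (16.8%). For smooth muscle, with 8 called, DESeq2 called 13 (21.2%), the fit over only the groups compared 0 (0%) and the human table's day 18 counts 14 (33.3%). For MesoT-derived MLC, with 2 called, DESeq2 called 10 (20.6%), no filter 1 (4.1%), the genes counted alike at day 18 4 (8.86%), the replicate block 5 (12.5%), MesoT day 18 alone as comparator 0 (1.7%) and MesoT day 22 alone 1 (2.74%). Leaving out each library in turn gave 1 to 19 called members for MLC against MesoT day 18, 7 to 21 for MesoT FCS against MesoT day 18, 11 to 15 for MLC against MesoT FCS, 8 to 20 for smooth muscle, 0 to 8 for MesoT-derived MLC and 0 for MesoT day 22. ANKRD37 in MLC turned to 0.07 with the human table's day 18 counts, and P4HA1 in MLC, not called, had -1.96 without day 18 replicate 2 and turned to 0.21 without replicate 1; the cause was not tested. Leaving the smooth muscle library out of the fit and thinning the MLC counts to the depth of the other libraries were settings chosen after seeing the data, and both kept every count within 1.5 times. Deviations of same-numbered libraries correlated at 0.605 between MesoT day 22 and day 18, and between -0.0501 and 0.137 for other pairs. For day 22 and day 18 the libraries thus deviated together by number over 15664 genes, which the main fit without a block ignores. The members did not all follow this. Summed upper and lower glycolysis was higher in replicate 1 at day 18 and in replicate 2 at day 22. The sum of the hypoxia-induced members was higher in replicate 1 at both days. The labels do not say what same-numbered libraries share. With the replicate block, MesoT day 22 against MesoT day 18 still called 0 of 22316 genes. A block was not possible for the lone smooth muscle library. With residual degrees of freedom of 3, changes under 1 (log2) are called for only a part of genes. Some larger changes were not called either, such as SLC16A3 in MesoT-derived MLC at -2.32 (log2).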
